A study of Mus musculus with 2 samples.

Results

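Colony-stimulating factors and cytokines of the interleukin-6 and interleukin-1 families were examined in CT26 cells, a mouse colon carcinoma line. The 10 genes were Csf1, Csf2, Csf3, Il6, Lif, Il11, Clcf1, Il6st, Il1a and Il33. They were taken by symbol from a deposited table of 54680 loci, in which each symbol stood on 1 locus, and they had been selected on their FPKM values in the libraries compared here, with the ratios between those libraries known. Of the 10, 6 reached 1 FPKM in either library and 4 did not. FPKM is the number of fragments per kilobase of gene model, scaled to a sequencing depth, which here was common to both libraries. RNA sequencing had been done on 1 library of cells carrying a lentiviral short hairpin RNA against Setdb1 and on 1 library of cells carrying an empty vector, whose genotype is labelled wild type; the libraries are named shSetdb1 and shCtrl below. Both cultures were lentivirally infected and were collected after 6 days, when the knockdown cells are described as differentiated. The labels do not say whether 1 or several hairpins, a clone or a pool was used. With 1 library in each group there was no replicate check, so each difference below is between these 2 libraries, and no test between the conditions was possible. In bulk RNA, fewer cells that express a gene and less RNA in each cell cannot be told apart.

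Colony-stimulating factors are secreted proteins that act on myeloid cells. Csf1 encodes the macrophage factor M-CSF, Csf2 the granulocyte-macrophage factor GM-CSF and Csf3 the granulocyte factor G-CSF. Cytokines of the interleukin-6 family signal through a shared receptor subunit, gp130, which Il6st encodes, and pass the signal to JAK kinases and the transcription factor STAT3. Gp130 works with further receptor subunits, such as those encoded by Il6ra and Il11ra1, or Lifr, which several ligands share. Il1a and Il33 belong to the interleukin-1 family, and both proteins can be held inside cells and released on damage. Messenger RNAs of many of these cytokines carry AU-rich elements in the 3′ untranslated region, which direct their rapid decay.

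All values above 0 (100%) converted back to whole reads. The libraries held 18421604 reads (shCtrl) and 19045830 reads (shSetdb1), and both had been divided by a common depth of 18731117 reads. Log2 ratios and percentages of the control level below therefore include the ratio of these totals, 1.034, whereas read ratios are corrected for it. Setdb1, the targeted gene, was at 10.4 FPKM in shCtrl and 2.47 FPKM in shSetdb1, 23.7% of the control level. As a check of the labelled cell type, Epcam and Cdh1 had 0 reads in both libraries and 3 of 8 epithelial markers (Krt18, Krt19 and Krt20) reached 1 FPKM. The epithelial list summed to 43.2 FPKM in shCtrl and 128 FPKM in shSetdb1. Of 7 fibroblast markers 4 reached 1 FPKM, and their list summed to 186 and 135 FPKM. Of these 4, Col1a2 (139.6 and 94.1 FPKM) and Col1a1 (32.1 and 24.0 FPKM) were lower in shSetdb1. Pdgfrb (13.5 and 14.6 FPKM) and Pdgfra (0.501 and 1.77 FPKM) were higher there. Of 6 macrophage and monocyte markers only Cd68, which many cell types use in lysosomes, reached 1 FPKM, at 10.4 in shCtrl and 100.2 in shSetdb1. That list summed to 11.4 and 101.2 FPKM, while Adgre1 and Itgam had 0 reads in both libraries. None of the 6 other leukocyte or 4 endothelial markers reached 1 FPKM.

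The 6 genes at 1 FPKM or more went in both directions. Csf2 and Il11 passed 2-fold upward in shSetdb1, and Csf1 downward, on the log2(FPKM + 1) scale. Lif and Clcf1 were higher, and Il6st was lower, by less than 2-fold on that scale. Of all 10671 genes that reached 1 FPKM in either library, 6.81% passed 2-fold upward and 4.85% downward. At 1.5-fold, 4 of the 6 genes were higher and 2 lower, against 16.9% and 14.3% of all, and at 4-fold 2 were higher and 0 lower, against 1.09% and 0.525%. With a pseudocount of 0.1 in place of 1, Clcf1 joined those past 2-fold, so that 3 were higher and 1 lower, against 10.6% and 8.15%. The median log2 ratio was 0.77 over the 6 genes, 0.0578 over all 10, and -0.00039 over the 10671. Csf2 and Il11 reached 1 FPKM only in shSetdb1, where they were higher, and the 10 genes were selected with these ratios known, so the counts and medians are descriptions. Intervals below are 95% exact intervals (Poisson for a level, Clopper-Pearson for a ratio of reads relative to each library's total) and cover counting error only, since PCR copies without molecular identifiers are not independent molecules.

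**Figure D1:**
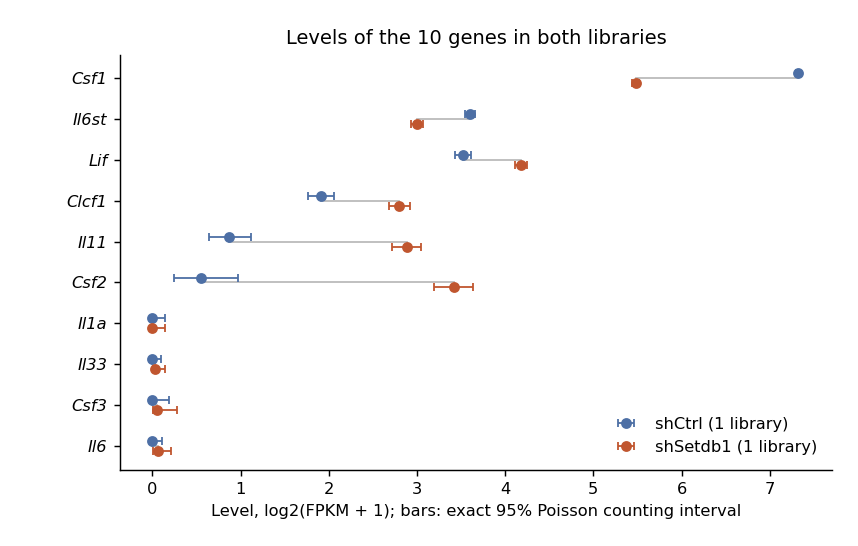
Level of each of the 10 genes as log2(FPKM + 1) on the horizontal axis, in the shCtrl library (blue) and the shSetdb1 library (orange), with 95% Poisson counting intervals. Csf1 had the highest level in both libraries, and Il6, Csf3, Il33 and Il1a lay at or near 0 in both.

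Csf1 (ENSMUSG00000014599, chromosome 3, 107741048 to 107760469, minus strand, GRCm38) had the highest level of the 10 genes in both libraries. It stood at 158.7 FPKM (15696 reads) in shCtrl and 43.6 FPKM (4315 reads) in shSetdb1. The knockdown level was 27.5% of the control level, the log2 ratio -1.84 and the read ratio 0.266 (0.257 to 0.275). The counting intervals of the levels, 156 to 161 and 42.3 to 44.9 FPKM, were far apart. Among the 10671 genes Csf1 stood at rank 365 by level in shCtrl and at rank 1511 in shSetdb1, and its ratio was the 77th from the bottom.

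Csf2 (ENSMUSG00000018916, chromosome 11, 54247271 to 54249667, minus strand) showed the opposite order. It had 7 reads in shCtrl, 0.467 FPKM with an interval of 0.188 to 0.962, and 145 reads in shSetdb1, 9.68 FPKM (8.17 to 11.4). The log2 ratio was 2.86, the 34th highest of the 10671 genes, and the read ratio was 20.04. The interval of that ratio, 9.48 to 50.7, is wide because the control library held so few reads. Csf1 messenger RNA was 340-fold above Csf2 per length in shCtrl and 4.51-fold above it in shSetdb1. Csf3 (chromosome 11, 98701263 to 98703629, plus strand), the remaining factor, had 0 reads in shCtrl and 1 in shSetdb1. Both counts were under a floor of 3 reads, which for Csf3 is 0.113 FPKM, and the interval of the 0 count reached 0.139 FPKM. A difference was therefore not detectable at this depth.

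The receptor of M-CSF has another ligand, encoded by Il34, and the pair went in opposite directions. Il34 (chromosome 8) had 356 reads in shCtrl and 964 in shSetdb1, or 9.70 and 26.3 FPKM. Its log2 ratio was 1.35 and its read ratio 2.62 (2.32 to 2.97). Csf1 and Il34 together summed to 168 FPKM in shCtrl and 69.9 FPKM in shSetdb1. The share of Il34 in that sum was 5.76% and 37.6%. Csf1r, which encodes their common receptor, had 1 read in shCtrl and 0 in shSetdb1. The receptor genes of GM-CSF and G-CSF were equally low: Csf2ra, Csf2rb and Csf3r had 0 reads in both libraries, and Csf2rb2, a mouse paralog of Csf2rb, had 1 read in each.

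**Figure D2:**
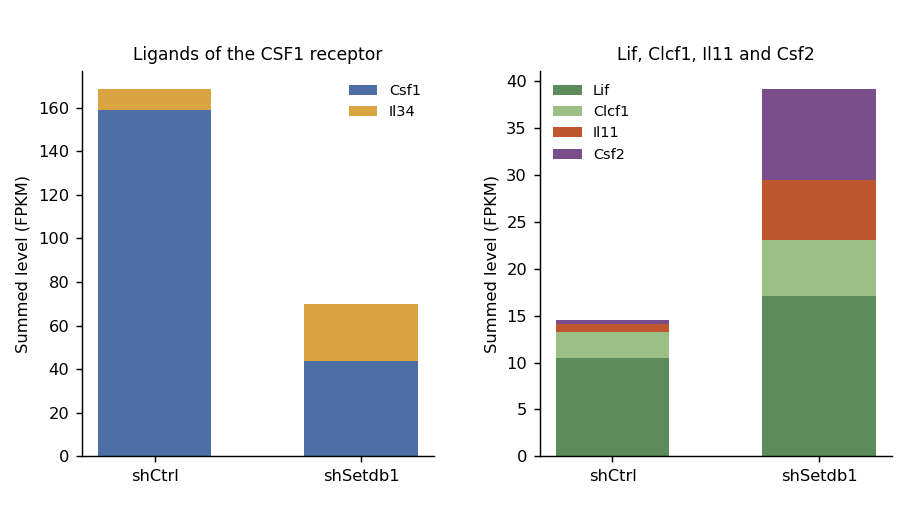
Summed FPKM (linear axes from 0) of the ligands of the CSF1 receptor, Csf1 and Il34 (left), and of Lif, Clcf1, Il11 and Csf2 (right), 1 library per bar. The left sum went from 168 to 69.9 FPKM, and the share of Il34 in it was larger in shSetdb1; each of the 4 genes on the right was higher there.

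Among the ligands that use gp130, Il11 differed most. Il11 (ENSMUSG00000004371, chromosome 7, 4772373 to 4782857, minus strand), which encodes interleukin-11, had 31 reads in shCtrl and 240 in shSetdb1. These are levels of 0.823 FPKM (0.559 to 1.17) and 6.37 FPKM (5.59 to 7.23). The log2 ratio was 2.02, the 111th highest of all, and the read ratio 7.49 (5.14 to 11.3). The intervals of the levels in the libraries did not overlap.

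Clcf1 (ENSMUSG00000040663, chromosome 19, 4214238 to 4223490, plus strand) encodes cardiotrophin-like cytokine factor 1, which binds the receptor made with CNTFR. It went from 192 reads in shCtrl to 415 in shSetdb1, from 2.76 FPKM (2.38 to 3.18) to 5.97 FPKM (5.41 to 6.57). Its log2 ratio of 0.89 was under the 2-fold threshold, whereas its read ratio was 2.09 (1.76 to 2.49), because the pseudocount of 1 draws in the ratios of low genes.

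Lif (ENSMUSG00000034394, chromosome 11, 4257557 to 4272514, plus strand), which encodes leukemia inhibitory factor, was the most abundant of the gp130 ligands. It had 856 reads (10.5 FPKM, 9.81 to 11.2) in shCtrl and 1396 reads (17.1 FPKM, 16.2 to 18.1) in shSetdb1. The log2 ratio came to 0.66 and the read ratio to 1.58 (1.45 to 1.72), a difference beyond counting error but under 2-fold. Il6 (ENSMUSG00000025746, chromosome 5, 30013114 to 30019981, plus strand) itself had 0 reads in shCtrl and 2 in shSetdb1. Both counts are at or under the floor of 3 reads, which is 0.0660 FPKM for Il6, so no fold is given.

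Il6st (ENSMUSG00000021756, chromosome 13, 112464070 to 112510086, plus strand), the gene of the shared subunit gp130, was lower in shSetdb1. It had 2318 reads (11.1 FPKM, 10.7 to 11.6) in shCtrl and 1456 reads (7.0 FPKM, 6.65 to 7.37) in shSetdb1. The log2 ratio came to -0.60 and the read ratio to 0.608 (0.569 to 0.649), again under 2-fold. Lif, Il11, Clcf1 and Il6 summed to 14.1 FPKM in shCtrl and 29.5 FPKM in shSetdb1. Relative to Il6st, that sum was 1.26 in shCtrl and 4.21 in shSetdb1.

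The interleukin-1 family genes had almost no reads. Il1a (chromosome 2, 129299610 to 129309972, minus strand), which encodes interleukin-1 alpha, had 0 reads in both libraries. The counting interval reached 0.0998 FPKM in each. Gm14023, a locus that overlaps Il1a, had 7 and 6 reads. Il33 (chromosome 19, 29925114 to 29960718, plus strand) had 0 reads in shCtrl and 1 in shSetdb1, under a floor of 0.0555 FPKM. The 4 genes below 1 FPKM, Il6, Csf3, Il33 and Il1a, together had 0 reads in shCtrl and 4 in shSetdb1.

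**Figure D3:**
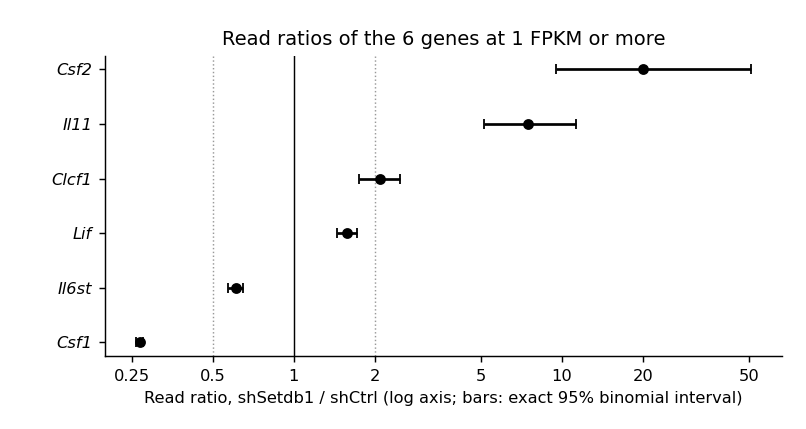
Read ratio of the shSetdb1 library over the shCtrl library, each relative to its own total, on a log axis for the 6 genes at 1 FPKM or more, with 95% binomial intervals. Every interval lay to 1 side of a ratio of 1, from 0.266 for Csf1 to 20.04 for Csf2, and dotted lines mark ratios of 0.5 and 2.

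The order of the genes by level per length changed between the libraries. In the control library it ran from Csf1 through Il6st, Lif, Clcf1 and Il11 to Csf2. Il6st and Lif overlapped in their counting intervals there, as did Il11 and Csf2. In the knockdown library it ran from Csf1 through Lif, Csf2, Il6st and Il11 to Clcf1, and the intervals of Il6st and Il11 and those of Il11 and Clcf1 overlapped. The 9 ligands summed to 173 FPKM in shCtrl, of which Csf1 made up 91.6%. In the knockdown library they summed to 82.9 FPKM, and the share of Csf1 was 52.6%. The ligands other than Csf1 summed to 14.6 and 39.2 FPKM.

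Some other genes had nearly the same pair of levels as Csf2 and Csf1. Likeness was the Euclidean distance of log2(FPKM + 1) over the 2 libraries, among 9364 other protein-coding genes. Nearest to Csf2 were Slfn2 (12 and 320 reads in shCtrl and shSetdb1, distance 0.114) and Phf11b (11 and 179 reads, distance 0.237). Nearest to Csf1 were Aars (24125 and 7726 reads, distance 0.194), which encodes alanyl-tRNA synthetase, and Aldh18a1 (10881 and 3628 reads, distance 0.195), which encodes an enzyme of proline synthesis.

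Sequences upstream of the genes were set beside these ratios. The RefSeq promoter table for GRCm38.p6 (250 bases before to 50 after each start) held 10 promoters for 8 of the 10 genes, with 2 each for Il11 and Il33 and none for Csf3 or Clcf1. Shown are those of Csf2 (chr11:54249850-54250149, minus strand) and Il11 (chr7:4778092-4778391, minus strand), which had the highest ratios. Csf1 (chr3:107760420-107760719, minus strand), which had the lowest ratio, and Il6 (chr5:30012864-30013163, plus strand), which had 2 kinds of match but hardly any reads, follow for contrast. Capitals mark matches to the 7 motifs described next.
Csf2: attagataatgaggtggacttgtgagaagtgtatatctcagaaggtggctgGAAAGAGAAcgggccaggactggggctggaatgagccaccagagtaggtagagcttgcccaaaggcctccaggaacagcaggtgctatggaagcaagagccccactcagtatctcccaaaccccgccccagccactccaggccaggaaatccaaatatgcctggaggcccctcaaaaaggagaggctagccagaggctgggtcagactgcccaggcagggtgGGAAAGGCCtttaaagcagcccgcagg
Il11: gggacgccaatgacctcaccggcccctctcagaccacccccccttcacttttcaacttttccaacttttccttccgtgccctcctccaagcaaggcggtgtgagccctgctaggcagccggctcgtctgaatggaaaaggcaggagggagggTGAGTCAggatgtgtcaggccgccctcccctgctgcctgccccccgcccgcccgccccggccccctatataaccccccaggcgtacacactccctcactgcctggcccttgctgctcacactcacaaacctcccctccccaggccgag
Csf1: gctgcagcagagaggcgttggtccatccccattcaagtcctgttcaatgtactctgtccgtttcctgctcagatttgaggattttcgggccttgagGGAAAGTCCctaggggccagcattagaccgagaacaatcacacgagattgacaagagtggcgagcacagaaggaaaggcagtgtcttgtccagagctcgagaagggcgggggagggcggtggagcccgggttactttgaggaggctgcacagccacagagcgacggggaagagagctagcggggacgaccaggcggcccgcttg
Il6: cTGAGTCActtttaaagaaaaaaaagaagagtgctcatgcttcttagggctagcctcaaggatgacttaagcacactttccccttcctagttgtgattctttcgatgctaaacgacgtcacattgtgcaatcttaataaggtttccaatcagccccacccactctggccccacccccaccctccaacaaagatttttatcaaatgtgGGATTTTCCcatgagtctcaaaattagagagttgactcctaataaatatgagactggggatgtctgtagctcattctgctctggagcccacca

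Both strands were searched, and no matches overlapped each other. A match is a run of letters and says nothing of binding. The form GGNNNTTCC, which many NF-kappaB sites fit, was found in the promoters of Csf1, Csf2 and Il6, 3 of 10, against 18.5% of all 32851 promoters in the table. The AP-1 site TGANTCA was found in 4 of 10, those of Lif, Il6 and Il1a and the Il11 promoter shown, against 7.81% of all. The form GAAANNGAA, part of many interferon response elements, was found in the Csf2 promoter only, against 8.56% of all. The TATA box letters TATAAA were found in 3 of 10, in Il1a and both Il33 promoters, against 13.6%. The CK-1 letters GAGATTCC, the STAT site TTCNNNGAA and the hypoxia core ACGTG were in none of the 10, against 0.904%, 8.30% and 19.6% of all promoters. The RefSeq start of Csf2 lies 232 bases upstream of the start in the deposited table. The Csf2 window therefore ends upstream of the deposited start, and the bases directly before that start were not searched. For Csf3 no promoter was available to search. The absence of the CK-1 letters, or of any other motif, therefore says nothing about those bases of Csf2 or about Csf3. The RefSeq start of the Il11 promoter shown lies 4716 bases downstream of the deposited Il11 start. The other Il11 promoter (chr7:4782808-4783107, minus strand), whose RefSeq start equals the deposited start, held no match to any of the motifs. The windows of Csf2 and Il11 thus depend on the annotation.

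The genes also differed in their AU-rich elements. The pentamer ATTTA was counted on the sense strand in the 3′ untranslated region of the GENCODE M21 transcript with the longest coding sequence, as was the overlapping pair ATTTATTTA. Among the 9313 genes at 1 FPKM or more with such a region, 5.04% held at least 1 pair. Csf2 held 9 pentamers and 5 pairs in 317 bases, and its 28.4 pentamers per kilobase were above those of 99.9% of 21037 genes. Il11 held 10 pentamers and 3 pairs in 1194 bases, and Clcf1 4 pentamers and 1 pair in 922 bases. Lif (7 pentamers in 3180 bases), Il6st (9 in 5641 bases) and Csf1 (4 in 2111 bases) held no pair. Csf3 and Il6, near 0 here, had 8.97 and 14.1 pentamers per kilobase and no pair, against a median of 1.13 over all 21037 genes.

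The densest 30 bases of 4 of these regions are printed to show how they differ in letters, with the pentamers in capitals. They lie at chr11:54247329-54247358 (Csf2, minus strand), chr7:4773506-4773535 (Il11, minus strand), chr19:4223402-4223431 (Clcf1, plus strand) and chr3:107741109-107741138 (Csf1, minus strand), all GRCm38.
Csf2: tttttaaatATTTATTTATTTATTTATTTA
Il11: ctttaaaaccagatcttATTTATTTATTTA
Clcf1: taatATTTATTTAtttggagatgttATTTA
Csf1: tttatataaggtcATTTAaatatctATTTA

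Other genes with such a pair were set beside these. Of the 466 other genes at 1 FPKM or more with a pair, 22 (4.72%) passed 2-fold upward and 16 (3.43%) downward. Of the 8841 without a pair, 6.25% passed 2-fold upward and 4.09% downward. The median log2 ratio was -0.11 with a pair and 0.00587 without. Csf2 and Il11 hold at least 3 pairs, as did 29 other genes at 1 FPKM or more. Of those 29, 2 (6.90%) passed 2-fold upward and 2 (6.90%) downward, with a median of -0.185.

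Factors of the decay and stability of AU-rich cytokine messenger RNAs were taken as a list. Whether each of them binds the pentamer was not examined. Of 14 decay and stability factors 11 reached 1 FPKM. Upward 1 passed 2-fold and downward 1, against 6.81% and 4.85% of all 10671 genes. The median log2 ratio was -0.0576 (0.0300 with a filter of 5 FPKM). The highest was Zc3h12a, which encodes the RNase Regnase-1, from 127 reads in shCtrl to 474 in shSetdb1 (log2 ratio 1.54). Its counterpart at the low end was Arid5a, whose protein stabilises Il6 messenger RNA, from 3314 to 1509 reads (log2 ratio -1.03). The others with most reads were closer to 0: Zfp36l2, a decay factor, was at -0.31, Khsrp at 0.53, Elavl1, which encodes the stabilising protein HuR, at -0.06, and Celf1 at -0.29. Zfp36, with fewer reads than these, went from 406 to 838 (0.94). Of the 11, 5 had a log2 ratio above 0 and 6 below.

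Receptor genes of the family were mostly low. Of 16 receptor genes 5 reached 1 FPKM, and none was 2-fold higher (6.81% of all 10671 genes) or lower (4.85%). Il11ra1, the receptor of interleukin-11, had the highest log2 ratio of these at 0.61, from 111 to 213 reads (read ratio 1.86, 1.47 to 2.36). Il6ra had 246 and 305 reads (log2 ratio 0.19), and Il27ra 93 and 56 reads (-0.38). For the interleukin-1 family, Il1r1 had the lowest log2 ratio at -0.46, from 429 to 280 reads. Il1rl1, the receptor of interleukin-33, had 939 and 851 reads (-0.12), although Il33 itself had at most 1 read. The partner that both need, Il1rap, had 35 and 36 reads. Lifr and Cntfr had 0 reads in both libraries, and Osmr 2 and 4, so that of the subunits Il6ra, Il11ra1, Lifr, Cntfr and Osmr only Il6ra and Il11ra1 reached 1 FPKM.

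Other ligands of these families were scarce. Of 22 on the list 19 were in the table and 3 reached 1 FPKM: Il34, described above, Kitl and Flt3l. Kitl, which encodes stem cell factor, had 197 reads in shCtrl and 99 in shSetdb1 (log2 ratio -0.55). Flt3l, whose product acts on dendritic cell precursors, had 72 and 91 reads (0.18), and its read ratio of 1.22 had an interval that included 1 (0.888 to 1.69). The 16 others had 52 reads in shCtrl and 24 in shSetdb1 in all, of which Ctf1, a further gp130 ligand, had 32 and 12.

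Genes of the pathway downstream of gp130 went in both directions. Of 17 genes of JAK-STAT3 signalling 14 reached 1 FPKM, 10 of them with a value above 0 and 4 below, and the median log2 ratio was 0.28 (0.52 with a filter of 5 FPKM). Only Socs3, the feedback inhibitor of gp130 signalling, passed 2-fold on the log2(FPKM + 1) scale, against 6.81% of all 10671 genes upward and 4.85% downward. Socs3 went from 411 to 962 reads (log2 ratio 1.13, read ratio 2.26, 2.01 to 2.55). Jak2 was lowest, from 239 to 94 reads (-0.82). Among those with most reads, the adaptors Grb2 (0.22), Shc1 (-0.17) and the phosphatases Ptpn11 (-0.08) and Ptpn1 (0.52) lay between.

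Of 22 genes that gp130 and STAT3 are known to induce, 17 reached 1 FPKM. Of these 5 passed 2-fold upward and 2 downward, against 6.81% and 4.85% of all 10671 genes, and the median log2 ratio was 0.18. The highest was Il4ra, a receptor subunit of interleukin-4, from 4.05 to 16.5 FPKM (log2 ratio 1.79). Junb, an AP-1 subunit, was at 62.4 and 206 FPKM (1.71). Bcl3 (1.72), Timp1 (1.13) and Socs3 were the others past 2-fold upward. Myc was the lowest, from 86.5 FPKM in shCtrl to 30.4 FPKM in shSetdb1 (-1.48). The other one past 2-fold downward was Saa3, from 59 to 4 reads (-1.03), and Lcn2, from 229 to 91 reads, was just short of it (-0.99). Mcl1 (0.18), Bcl2l1 (-0.45) and Ccnd1 (0.10), which act in cell survival and the cell cycle, stayed under 2-fold.

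A list of 20 NF-kappaB and AP-1 genes held transcription factor subunits together with NF-kappaB inhibitors and feedback genes. Of these 17 reached 1 FPKM, 5 of them at least 2-fold higher and none 2-fold lower, against 6.81% and 4.85% of all 10671 genes. The median log2 ratio was 0.72. The 5 were the inhibitor genes Nfkbie and Nfkbia and the AP-1 subunit genes Junb, Jun and Fosb. Nfkbie, which encodes an inhibitor of NF-kappaB, was highest, from 283 to 1389 reads (log2 ratio 2.09). Rel, which encodes the subunit c-Rel, was lowest, from 161 to 44 reads (-0.71), and the subunit gene Rela was the other lower one, from 3930 to 2510 reads (-0.64). The read ratio, which has no pseudocount, was 0.264 (0.185 to 0.371) for Rel and 2.09 (1.65 to 2.66) for the list member Nfkbiz. Of the genes with most reads, Nfkb2 went from 120 to 197 FPKM (0.72), Fosl1 from 118 to 173 FPKM (0.55) and Fosl2 from 12.4 to 23.4 FPKM (0.87).

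The list of interleukin-1 family processing and signalling genes was centred near 0. Of its 17 genes 16 reached 1 FPKM, none 2-fold higher and 1 at least 2-fold lower, against 6.81% and 4.85% of all 10671 genes. The median log2 ratio was 0.00403. That median was below 0 with a filter of 5 FPKM, on log2(CPM + 1) and under 3 of the 4 other scalings. S100a13, whose product takes part in the release of interleukin-1 alpha, was highest at 0.84 (547 and 992 reads). Tab2, an adaptor of the kinase TAK1, was lowest at -1.10 (1316 and 552 reads). The calpain genes Capn1 (0.51), Capn2 (0.12) and Capns1 (-0.12), whose proteases cut the interleukin-1 alpha precursor, were abundant in both libraries although Il1a had no reads.

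**Figure D4:**
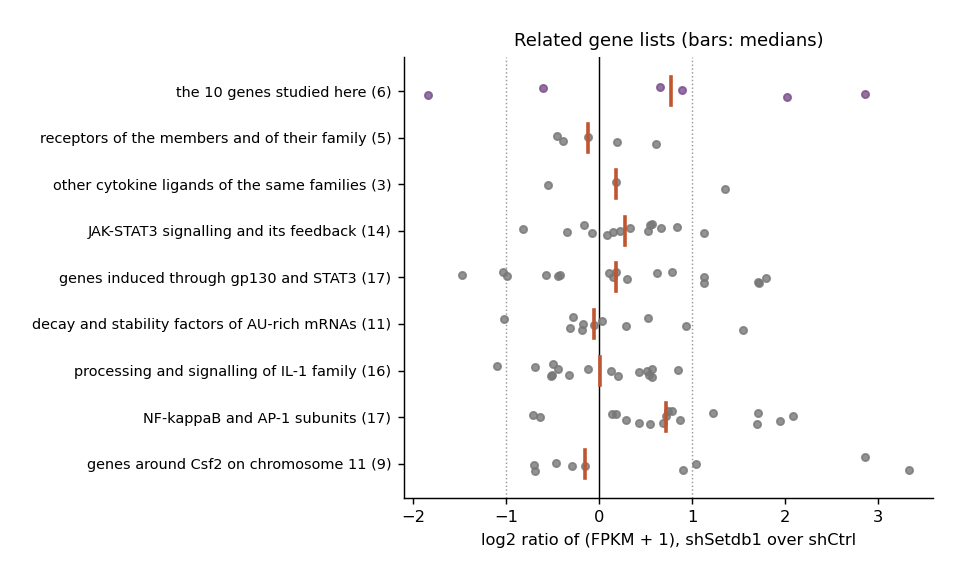
The log2 ratio of (FPKM + 1), shSetdb1 over shCtrl, for each gene at 1 FPKM or more (points, number in brackets), for the genes studied here and the 8 related lists, with list medians as orange bars. The NF-kappaB and AP-1 list had a median of 0.72 and the receptors -0.12; Junb, Fos, Socs3 and Csf2 each appear in more than 1 row.

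Csf2 lies beside P4ha2 on chromosome 11, and the values of the region were therefore set out. P4ha2 (54100095 to 54131665, plus strand), which encodes a subunit of collagen prolyl 4-hydroxylase, had 491 reads in shCtrl and 6008 in shSetdb1. Its log2 ratio was 3.33 and its read ratio 11.8 (10.8 to 13). The ends of P4ha2 and Csf2 face each other across 116 kb, and the 3 annotated loci between them had 0 reads in both libraries. The annotated antisense locus that overlaps Csf2, Gm12223, also had 0 reads in both. On the other side, Il3, Acsl6 and Meikin had 0 reads, and the nearest locus with reads was the pseudogene Gm12226, with 3 and 7. Beyond it, at 189 kb, Fnip1 went from 253 to 146 reads (log2 ratio -0.47).

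Within 500 kb to either side of Csf2 the table held 30 other loci, 17 of them without reads and 7 at 1 FPKM or more. Of these 7, P4ha2, Slc22a4 and the small Mir7671 were at least 2-fold higher and none was 2-fold lower. The shares over all 10671 genes were 6.81% and 4.85%. Slc22a4, an organic cation transporter gene, had 177 and 415 reads (log2 ratio 1.04). Mir7671 had 0 and 9 reads and so reached 1 FPKM only in shSetdb1. Irf1, an interferon regulatory factor gene at the edge of the window, had 733 and 1438 reads (0.91). Slc22a5 (-0.15), Fnip1 and Cdc42se2 (-0.70) were lower. Of the 17 listed genes around Csf2, 9 reached 1 FPKM, including Csf2, and their median log2 ratio was -0.15 (1.04 with a filter of 5 FPKM, which fewer genes passed). The lowest was Rad50, a DNA repair gene, at -0.70.

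**Figure D5:**
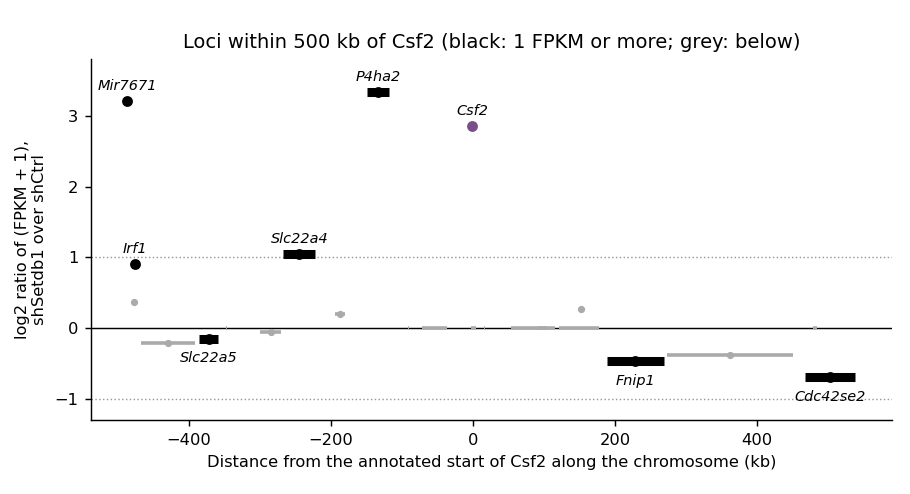
The log2 ratio of (FPKM + 1), shSetdb1 over shCtrl, of every annotated locus within 500 kb of Csf2, against distance from its annotated start in kb (bars span each locus; black or violet, 1 FPKM or more; grey, below). P4ha2 at 3.33 was the highest, followed by Mir7671, which had 0 and 9 reads, and by Csf2 at 2.86.

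Neighbours of the other genes set out here had log2 ratios below that of P4ha2. For each of the 6 genes at 1 FPKM or more, the nearest protein-coding gene at 1 FPKM or more on each side was taken, which gave 12 neighbours. Their log2 ratios ran from -0.56 to 3.33 with a median of 0.04. At least 2-fold higher were 2 of them, against 6.81% of all 10671 genes. These 2 were P4ha2 beside Csf2 and Pold4, a DNA polymerase delta subunit gene 8.41 kb from Clcf1, which went from 954 to 2152 reads (1.16). Beside Il11, Tmem190 lay at a distance of 79 bases with 33 and 31 reads (-0.06), and Kmt5c, a histone H4 methyltransferase gene, had 400 and 814 reads (0.90). Beside Lif, Castor1 was at 0.26 and Mtmr3 at 0.09, and Osm, a further gp130 ligand gene, had 0 reads in both libraries. Closer to Lif than Mtmr3, at 43.6 kb, a locus without a gene symbol had 11 and 85 reads (1.98). It was not annotated as protein-coding and so was not among the 12. Beside Csf1, Ahcyl1 was at -0.56 and Gstm5 at 0.90. Beside Il6st, Ankrd55 was at -0.04 and Plpp1 at -0.02. The neighbours were chosen after the values of the 10 genes were known.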

How the data were processed

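RNA of CT26 cells was sequenced as 2 libraries, 1 per group, with groups from the genotype labels and columns matched by library name. The authors deposited FPKM values for each gene, per the file headers, with the length and position of each gene model. The submitters' processing notes name CASAVA, HISAT2, featureCounts 1.5.0-p3 and GRCm38, and the strand setting is not given in the sources used here. Deposited coordinates of 9 of the 10 genes equalled those of GENCODE M21 (GRCm38), and those of Il11 did not.

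Each FPKM was multiplied by its gene length and divided by the value of 1 read, which was the same for both libraries, and 100% of values above 0 came out whole within 0.001. Ratios are log2 of (FPKM + 1), shSetdb1 over shCtrl; the pseudocount was 1. Genes were counted if they reached 1 FPKM in either library and at a 2-fold difference. Read ratios are relative to the libraries' totals, with 95% Clopper-Pearson intervals, and no fold is given where both counts are at or under 3 reads. No test between conditions was made.

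The 10 genes, the 8 related lists and the 31 markers were chosen with earlier results of these data known. Named in the text are the 10 genes, Setdb1, P4ha2, the neighbours of Csf2, the highest and lowest of each list with up to 4 more with most reads, and the 2 genes nearest in pattern. Other genes were named, and AU-rich pentamers were counted, after values had been seen. Alternatives were another pseudocount, 4 scalings, CPM of recovered reads, other filters and thresholds, protein-coding genes only, and a mean. Calculations were tested on simulated data, in Python 3.11.15 with scipy 1.17.1, pandas 2.3.3, numpy 2.4.6 and matplotlib 3.10.9.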

Additional observations from a re-analysis of the deposited data

How the results depend on the processing

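Of 54 alternative values of the log2 ratios of the 6 genes, 46 stayed within counting error, 8 moved and 0 reversed. The largest move was that of Csf2, to 4.11 with a pseudocount of 0.1 FPKM, where Il11 was at 2.81 and Clcf1, at 1.08, passed 2-fold, because a smaller pseudocount draws in low genes less. The median of the genes studied here was 0.0578 without a filter, since 4 genes near 0 reads entered. The 1.5-fold threshold gave 4 genes higher and 2 lower, and the 4-fold threshold 0 lower.

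Over all genes, 1134 were higher and 870 lower with a pseudocount of 0.1, 1804 and 1523 at 1.5-fold and 116 and 56 at 4-fold. The median log2 ratio of genes that reached 1 FPKM in each library was -0.00231 as reported and -0.0544 at its lowest, under upper-quartile scaling.

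Medians of the lists moved or reversed as follows, and except for filters, which change the genes, the cause was not tested. With the filter at 5 FPKM, JAK-STAT3 genes were at 0.52, other ligands at 1.35, and AU-rich factors (0.0300) and genes around Csf2 (1.04) reversed. Interleukin-1 processing genes reversed to -0.12 with that filter, -0.0568 when scaled by upper quartiles, -0.0555 when the 100 highest genes were left out of the scaling, -0.0435 by each library's read total and -0.0430 on log2(CPM + 1). For NF-kappaB and AP-1 genes the median was 0.77 at a pseudocount of 0.1, 0.66 under each of the first 2 of those scalings, 0.67 by read totals and 0.62 without a filter. Genes induced through gp130 were at 0.123 and 0.124 under the same 2 scalings and 0.127 without a filter, and receptors at 0 without a filter.

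No paired analysis was possible because only 1 library stood in each group, and no library was left out for the same reason. Depth limits Csf2 and Il11 in the control library, with 7 and 31 reads, and the 4 genes with at most 2 reads.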
